A study of Mus musculus with 24 samples.

Results

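The Ly49 genes Klra1, Klra3, Klra4, Klra5, Klra6, Klra7, Klra8 and Klra9 were followed in single NK1.1+CD3e+ cells of the mouse liver. They were chosen by gene symbol and are 8 of the 24447 genes in the count matrix. The cells came from mice labelled C57BL/6 in all 3 genotypes and aged 8 to 10 weeks, and were enriched by sorting for NK1.1 and CD3e, taken up one by one under manual control and sequenced with molecular identifiers (UMIs), so that each count stands for 1 captured transcript. Wild-type (WT) mice were set beside 2 mutants. Jα18-deficient mice cannot form the invariant receptor that defines type I NKT cells. In CD1d-deficient mice the lipid-presenting molecule on which NKT cells of both types depend is missing. The labels name no treatment, and every group was sorted with the same gate on NK1.1 and CD3e. The labels list 8 libraries for each genotype, but the cell names carry the genotype alone. Each genotype was therefore handled as 1 pool of cells, of 623 WT, 725 Jα18-deficient and 387 CD1d-deficient cells, and genotypes were compared without a test.

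Ly49 receptors are lectin-like receptors of natural killer (NK) cells and of some T cells, and they read MHC class I on other cells. Most members carry a tyrosine motif in the tail inside the cell that recruits phosphatases such as SHP-1 (Ptpn6) and holds the cell back. A few members lack this motif and pair instead with the adaptor DAP12 (Tyrobp), through which they activate the cell. Each NK cell switches on only some of the clustered genes, so that neighbouring cells carry different sets of receptors. Klra1 encodes Ly49A, Klra3 Ly49C, Klra5 Ly49E, Klra6 Ly49F, Klra7 Ly49G and Klra9 Ly49I, all inhibitory. Klra4 encodes Ly49D and Klra8 encodes Ly49H, the activating receptor that recognizes a protein of mouse cytomegalovirus.

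In the mm9 genome the 8 genes lie on the minus strand of chromosome 6 between 129849014 and 130336892, a stretch of 487879 bases. The start of the coding sequence shows what separates the inhibitory from the activating members, and it is shown here for that reason. Bases 10 to 39 of each coding sequence are given 5′ to 3′ on the coding strand, with codon 8 in capitals, and all of these windows lie in coding exons.
Klra1, chromosome 6, 130330642 to 130330671: caggaggtcactTATtcaatggtgagattt
Klra3, chromosome 6, 130285779 to 130285808: ccagaggtcactTACtcaactgtgagactt
Klra5, chromosome 6, 129861441 to 129861470: ccagaggtcactTACtcaactgtgagactt
Klra6, chromosome 6, 129975199 to 129975228: ccggaggtcactTACtcaactgtgagactt
Klra7, chromosome 6, 130181597 to 130181626: caggaggtcactTACtcaactgtgagattt
Klra9, chromosome 6, 130141281 to 130141310: ccggaggtcactTACtcaactgtgagactt
Klra4, chromosome 6, 130015282 to 130015311: caggaagacactTTCtcagctgtgagattc
Klra8, chromosome 6, 130078140 to 130078169: caggaggtcactTTCccaactatgagattc
Codon 8 reads tyrosine in the 6 inhibitory members and phenylalanine in Klra4 and Klra8. The window of Klra3 was identical to that of Klra5, and the window of Klra6 to that of Klra9.

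The genes are close copies of each other, so reads of one could be counted for another. Over the 28 pairs of members the coding sequences were 76.8% to 95.9% identical, with a median of 82.7%. Klra3 and Klra9 were the closest pair and differed at 33 of 801 bases. Their most different stretch of 60 bases, positions 337 to 396 of the coding sequence, is given with the 8 differing bases in capitals, to show how far a read can separate them.
Klra3, chromosome 6, 130283178 to 130283237: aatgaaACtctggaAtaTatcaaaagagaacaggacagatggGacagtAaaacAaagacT
Klra9, chromosome 6, 130138673 to 130138732: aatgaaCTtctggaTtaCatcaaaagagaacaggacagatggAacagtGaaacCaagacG
Elsewhere the coding sequences of the pair shared runs of up to 62 bases. No pair of members shared a coding run as long as a sequenced read of 150 bases. Untranslated parts of the transcripts were not compared. The GENCODE annotation of mm9, used here for positions, adds a further limit: the locus of Klra9, from 130128771 to 130285823, overlaps those of Klra3, Klra7, Klra10 and Klra23. The authors' methods do not name the gene models on which reads were counted, so these may differ. Of the 6 exons of the longest-reaching Klra9 transcript model, 5 overlap exons of Klra3. Values of Klra3 and Klra9 were therefore treated as uncertain and examined cell by cell, as given further on.

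Depth was 34102694 UMIs for WT, 60484252 for Jα18-deficient and 14536585 for CD1d-deficient cells, with medians of 40467, 46670 and 13508 UMIs per cell. No cell name was shared between pools. To compare detection at equal depth, cells with at least 10000 UMIs were thinned at random to 10000, which kept 523 WT, 632 Jα18-deficient and 227 CD1d-deficient cells and left out 353. A cell with at least 1 UMI of any of the 8 genes in this thinned set is called Ly49-positive. The CD3 part of the sort label was checked against the T cell genes Cd3d, Cd3e, Cd3g, Cd5 and Cd6. A UMI of at least 1 of them was found in 99.4% to 100% of Ly49-positive and 99.7% to 100% of Ly49-negative cells. The check therefore did not tell these classes apart. Cd5 was found in 27.2%, 29.05% and 13.6% of Ly49-positive WT, Jα18-deficient and CD1d-deficient cells, against 29.9%, 34.3% and 26% of Ly49-negative ones. Cd6 was found in 34.8%, 38.1% and 9.04%, against 44.4%, 50.3% and 26%. Cd3e was found more often in Ly49-positive cells of every pool, and Cd3d and Cd3g differed in direction between pools. Klrb1c, which encodes NK1.1, was found in 86.1%, 90.02% and 89.8% of Ly49-positive cells in the WT, Jα18-deficient and CD1d-deficient pools. Genes of NK cells were also present in the Ly49-positive cells, at 14.6%, 29.3% and 49.7% for Ncr1, 63.3%, 76.5% and 90.4% for Klre1 and 50.6%, 82.9% and 95.5% for Tyrobp in the same order. Eomes, a transcription factor of conventional NK cells, was found in 1.13% to 2.44%. At least 1 of these 4 NK cell genes was found in 74.7%, 97.1% and 98.3% of Ly49-positive and 51.0%, 87.3% and 96.0% of Ly49-negative cells, with summed levels of 0 to 158, 0 to 186 and 0 to 117 UMIs in Ly49-positive and 0 to 46, 0 to 72 and 0 to 68 UMIs in Ly49-negative cells. The part of these transcripts in the results was not tested.

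Ly49 transcripts were found in more cells of both deficient pools than of the WT pool. A UMI of any member was present in 158 WT cells, or 30.2% (95% Clopper-Pearson exact interval 26.3 to 34.3%). It was present in 451 Jα18-deficient cells, or 71.4% (67.7 to 74.9%), and in 177 CD1d-deficient cells, or 78.0% (72.0 to 83.2%). With all cells at their full depth the shares were 45.3%, 91.6% and 85.5%, so the order of the deficient pools depended on depth. Intervals cover counting error only. The sort holds no cell type known to lack Ly49 transcripts, so no background share could be set beside these.

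**Figure D1:**
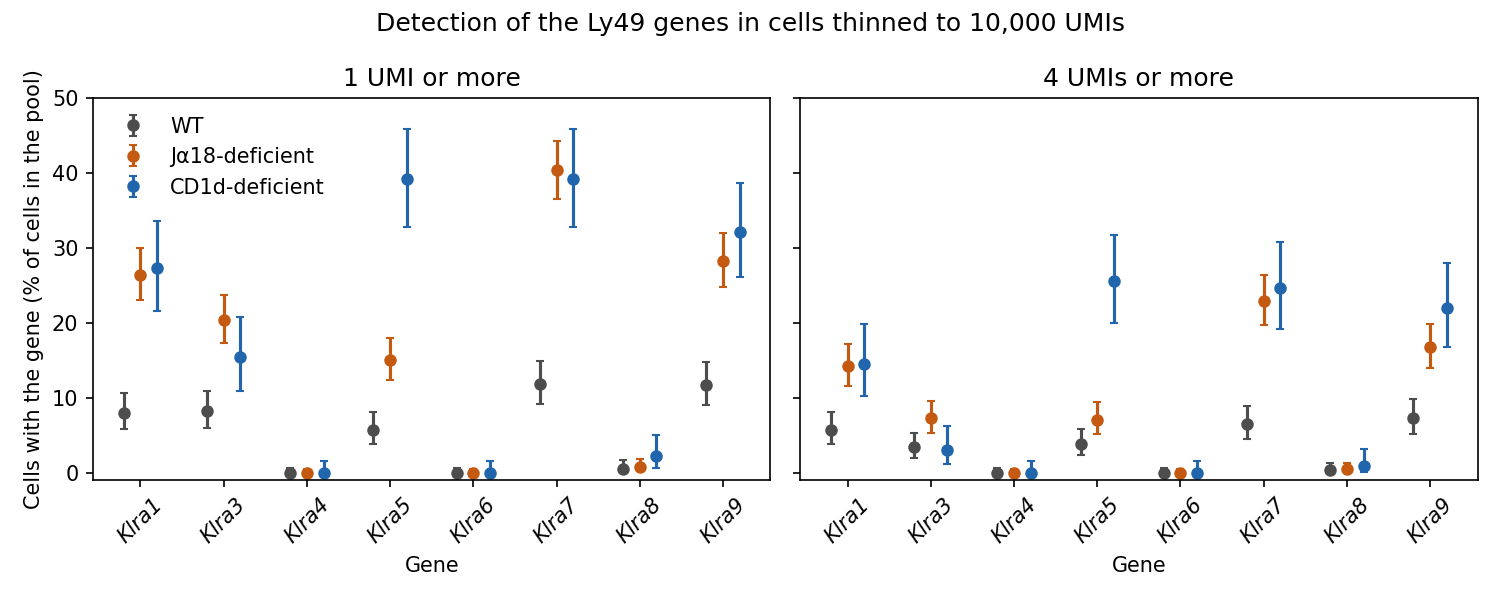
Share of cells (%, vertical axis) with at least 1 UMI (left) or at least 4 UMIs (right) of each Ly49 gene, in cells thinned to 10,000 UMIs. Points are the shares in the WT, Jα18-deficient and CD1d-deficient pools and bars are exact 95% intervals. Klra7 reaches 40.3% in the Jα18-deficient pool, Klra5 stands out in the CD1d-deficient pool at 39.2%, and Klra4 and Klra6 are at 0 in every pool.

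Among the inhibitory members, Klra7 had shares of 11.9% (WT), 40.3% (Jα18-deficient) and 39.2% (CD1d-deficient). The shares were 11.7%, 28.3% and 32.2% for Klra9 and 8.03%, 26.4% and 27.3% for Klra1. For these 3 genes the intervals of the deficient pools overlapped each other and lay above that of the WT pool. Klra5 differed between the deficient pools, with 5.74% in WT (3.90 to 8.09%), 15.03% in Jα18-deficient (12.3 to 18.1%) and 39.2% in CD1d-deficient cells (32.8 to 45.9%), where Klra5 and Klra7 were each found in 89 cells. Klra3 was found in 8.22% (6.01 to 10.9%), 20.4% (17.3 to 23.8%) and 15.4% (10.98 to 20.8%). Within the WT pool the intervals of Klra7, Klra9, Klra3 and Klra1 overlapped, so their order there was not resolved.

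The members that remain were rare or at 0. The activating Klra8 had a UMI in 3 WT cells, 5 Jα18-deficient cells and 5 CD1d-deficient cells, or 0.574%, 0.791% and 2.20%, with overlapping intervals. Klra4, the other activating member, and the inhibitory Klra6 had 0 UMIs in all 1735 cells. How reads shared between the genes were counted is not given in the sources used here, so a row of 0 may stand for transcripts that were counted for another gene or for none. If every read of these genes was counted for them, 0 counts in the thinned cells allow a share, taken as 3 counts of the total, of up to 0.574%, 0.475% and 1.32% of WT, Jα18-deficient and CD1d-deficient cells. At full depth the limit from 3 counts is a level of 0.0880, 0.0496 and 0.206 UMIs per 1000000 UMIs (CPM).

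Levels over all UMIs of a pool gave the same picture for the family and a different size for each gene. UMIs count molecules and were not divided by length, and the coding sequences are of nearly one length, 789 to 843 bases. The 8 genes together made up 355 CPM in WT (exact Poisson 95% interval 348 to 361), 1042 in Jα18-deficient (1034 to 1051) and 1383 in CD1d-deficient cells (1364 to 1403). The Jα18-deficient level was 2.94 times (2.88 to 2.997) and the CD1d-deficient level 3.90 times (3.81 to 3.99) that of WT. Klra7 had the highest level of any member in each pool, with 124, 483 and 497 CPM.

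Klra5 showed the widest gap between the deficient pools among the common members, with 48.8 CPM in WT, 86.9 in Jα18-deficient and 354 in CD1d-deficient cells. Its level in the CD1d-deficient pool was 7.26 times that of WT (6.87 to 7.68) and 4.08 times that of the Jα18-deficient pool (3.92 to 4.24). Klra1 had 58.9, 187 and 204 CPM and Klra9 had 76.8, 177 and 248 CPM in the same order. Both were thus lowest in WT, with a ratio between the deficient pools of 1.09 for Klra1 and 1.398 for Klra9. Klra3 had 42.5, 107 and 53.7 CPM and was the one common member whose level was highest in the Jα18-deficient pool. Single cells weighed on these sums, with up to 505 of 1448 Klra3 UMIs in a WT cell. The highest counts were 1149 of 6466 in a Jα18-deficient and 210 of 780 in a CD1d-deficient cell. By share of cells with Klra3, the intervals of the deficient pools overlapped. Klra8 had 3.90, 1.67 and 25.6 CPM, from UMIs in 8, 14 and 12 cells. Its ratio of Jα18-deficient over WT was 0.428 in pooled UMIs but 1.42 as a mean over cells and 1.26 in thinned cells, so no direction is given for it.

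Of the 6 members with UMIs, Klra1, Klra3, Klra7 and Klra9 had at least 2-fold the WT level in Jα18-deficient cells, as did 14.0% of the 10267 genes for which these pools together held 100 UMIs or more. Klra8 was at least 2-fold lower in pooled UMIs, as were 7.14% of these genes. CD1d-deficient cells had at least 2-fold the WT level of 5 members, all but Klra3, against 12.2% of 9447 genes. They had at least 2-fold the Jα18-deficient level of Klra5 and Klra8, against 9.58% of 10042 genes. Transcripts of the myeloid gene Lyz2 also set the CD1d-deficient pool apart. Lyz2 was found in 90.4% of Ly49-positive and 96.0% of Ly49-negative cells there, in 25.9% and 32.3% of WT cells and in 13.7% and 7.73% of Jα18-deficient cells. Over the list Lyz2, Csf1r, Cd68, Itgam and Adgre1, the summed level ran from 0 to 140 UMIs per cell in the CD1d-deficient pool, from 0 to 20 in WT and from 0 to 15 in Jα18-deficient cells. The part of these transcripts in the difference between pools was not tested.

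Within positive cells the levels of Klra1, Klra5, Klra7 and Klra9 had more cells in a low and in a high range than between them. Of 828 cells with a Klra7 UMI at full depth, 344 had under 0.5 UMIs per 10000 and 320 had 4 or more, while 86 lay between 1 and 4. Klra1 had 293 cells under 0.5, 78 between 1 and 4 and 194 at 4 or more, of 606. For Klra5 the numbers were 203, 61 and 164 of 465 cells, and for Klra9 264, 132 and 233 of 667 cells. Klra3 had no such high range: of 518 cells, 262 lay under 0.5, 97 between 1 and 4 and 76 at 4 or more. Cells from 0.5 to 1 also lay between the ranges, with 78 for Klra7, 41 for Klra1, 37 for Klra5, 38 for Klra9 and 83 for Klra3. A limit of at least 4 UMIs in the thinned cell, chosen after these levels were seen, was therefore set beside that of 1 UMI. At 4 UMIs, any member was found in 17.6% of the WT cells (14.4 to 21.1%), 42.2% in the Jα18-deficient (38.4 to 46.2%) and 59.5% in the CD1d-deficient pool (52.8 to 65.9%). Klra7 was then found in 6.50%, 22.9% and 24.7% of cells of these pools, Klra9 in 7.27%, 16.8% and 22.03%, Klra1 in 5.74%, 14.2% and 14.5%, Klra5 in 3.82%, 7.12% and 25.6%, and Klra3 in 3.44%, 7.28% and 3.08%.

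Many Ly49-positive cells held more than 1 member. Klra3 and Klra9, whose values were treated as uncertain, were counted here as separate members. At least 2 members were found in 34.2% of the 158 Ly49-positive WT cells (26.8 to 42.1%). The share was 52.8% among the 451 Jα18-deficient positive cells (48.0 to 57.5%) and 61.0% among the 177 CD1d-deficient ones (53.4 to 68.2%). Up to 5 members were found in 1 cell, in 1 WT, 3 Jα18-deficient and 4 CD1d-deficient cells. At 4 UMIs, the shares of positive cells with at least 2 members were 38.0%, 49.4% and 41.5%, and their intervals overlapped.

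**Figure D2:**
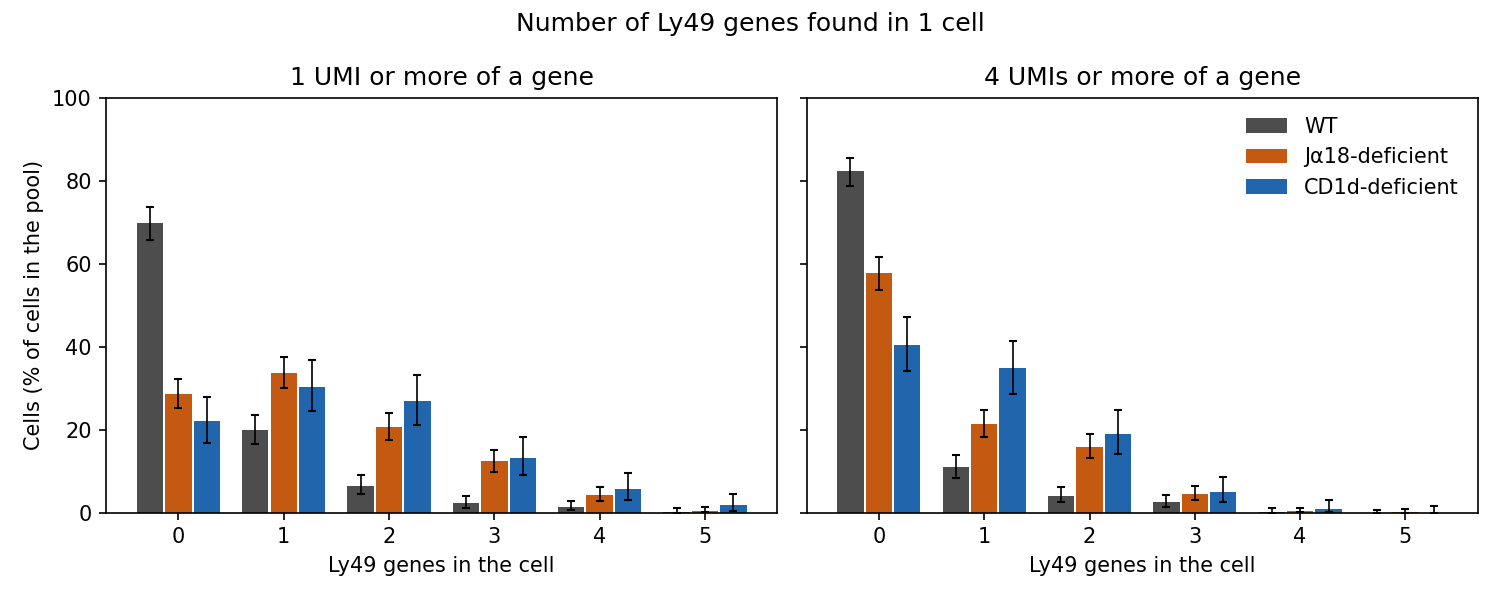
Share of cells (%, vertical axis) by the number of Ly49 genes found in the cell (horizontal axis), counting genes with at least 1 UMI (left) or at least 4 UMIs (right) in cells thinned to 10,000 UMIs. Bars are the pools and error bars exact 95% intervals. At 1 UMI, cells with no member make up 69.8% (WT), 28.6% (Jα18-deficient) and 22.03% (CD1d-deficient) of their pools.

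Klra1 with Klra7 was the pair whose intervals with and without the other gene were apart in all 3 pools at both limits. Klra7 was found in 35.7% of WT cells with Klra1 and in 9.77% of those without it. The same shares were 54.5% and 35.3% for Jα18-deficient and 56.5% and 32.7% for CD1d-deficient cells. At 4 UMIs the gap was wider, at 40.0% against 4.46% in WT, 54.4% against 17.7% in Jα18-deficient and 60.6% against 18.6% in CD1d-deficient cells. Klra5 was likewise found more often in cells with Klra9, at 27.9% against 2.81% in WT, 24.6% against 11.3% in Jα18-deficient and 53.4% against 32.5% in CD1d-deficient cells. At 4 UMIs its intervals were apart in 2 of the 3 pools.

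Of the 10 pairs among Klra1, Klra3, Klra5, Klra7 and Klra9, 9 were found together more often than apart in all 3 pools at 1 UMI, that is, 1 gene was found in a larger share of cells with than without the other. At 4 UMIs this held for 5 pairs. These counts go by direction alone. Intervals were apart in all 3 pools for 3 pairs at 1 UMI and for 1 pair at 4 UMIs. The 3 pairs were Klra1 with Klra7, Klra5 with Klra9 and Klra3 with Klra9. For Klra3 with Klra9, whose values were treated as uncertain, the intervals overlapped in every pool at 4 UMIs. That pair is also counted among the 9 pairs at 1 UMI and the 5 pairs at 4 UMIs. At 1 UMI, Klra9 was found in 32.3% of CD1d-deficient cells with Klra1 and in 32.1% of those without it. Klra3 with Klra7 went the other way: at 4 UMIs, Klra7 was found in 1 of 18 WT cells with Klra3, in 8 of 46 Jα18-deficient cells and in 0 of 7 CD1d-deficient cells, against 6.53%, 23.4% and 25.5% of cells without Klra3. Klra3 with Klra5 was also lower in all 3 pools, and for both pairs the intervals overlapped in every pool. No test was made of the pairs, since cells of a pool are not replicates. At 1 UMI, 24 of the 30 combinations of pair and pool were higher among cells with a Cd8a UMI and 26 of 30 among cells without one. At 4 UMIs the numbers were 19 of 27 and 22 of 30. By direction alone, most combinations were thus higher in both classes.

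Klra3 and Klra9, the pair with the closest sequences, were examined in the 120 cells that held at least 50 UMIs of the 2 genes together. In 85 of these cells Klra3 made up under 20% of the pair's UMIs, in 26 over 80%, and 9 lay between. Among the cells of mostly Klra9, the median Klra3 share was 3.61% in WT, 4.35% in Jα18-deficient and 4.40% in CD1d-deficient cells. Their shares ran from 0 to 17.3%. Among the cells of mostly Klra3 the median was 99.7% over all pools. The relation was uneven: Klra3 had a UMI in 81 of 89 cells with at least 50 Klra9 UMIs (91.0%), and Klra9 in 18 of 29 cells with at least 50 Klra3 UMIs (62.1%). At 1 UMI, Klra3 was found in 29.5% of WT cells with Klra9 and 5.41% of those without, and at 4 UMIs in 7.89% and 3.09%. How the reads of the pair were divided between the genes was not tested.

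**Figure D3:**
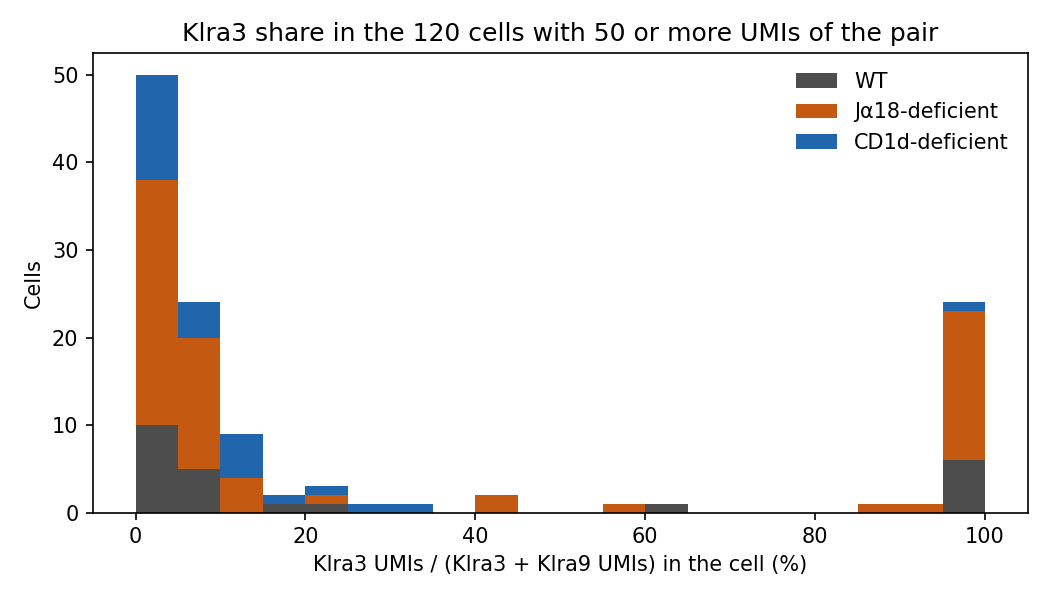
Number of cells (vertical axis) by the share of Klra3 among the UMIs of Klra3 and Klra9 in the cell (%, horizontal axis), for the 120 cells with at least 50 UMIs of the pair, stacked by pool. Cells gather at both ends, 85 with under 20% and 26 with over 80% Klra3.

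Cd8a, which encodes the α chain of the CD8 coreceptor, was found more often in Ly49-positive cells. It had a UMI in 19.6% of Ly49-positive and 2.47% of Ly49-negative WT cells. The shares were 23.9% and 9.39% for Jα18-deficient cells, and 52.0% and 38.0% for CD1d-deficient cells. The difference was 17.2, 14.6 and 14.0 percentage points, with a mean of 15.2 ± 1.69 (SD, n = 3 pools). It was positive in all 3 pools, and the exact two-sided sign-flip permutation test gave p = 0.25, the smallest value that 3 pools allow. In the WT pool the share with Cd8a was 2.47% in cells with no member, 12.5% with 1, 29.4% with 2 and 40.0% with 3 or more. It was 9.39%, 12.2%, 24.6% and 46.3% for Jα18-deficient cells and 38.0%, 43.5%, 59.0% and 55.3% for CD1d-deficient cells, where the intervals overlapped throughout. Ly49-positive cells were shallower than Ly49-negative ones before thinning, with medians of 46292 and 53780 UMIs in WT, 51837 and 73236 in Jα18-deficient and 35665 and 43874.5 in CD1d-deficient cells.

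Cd4 went in the opposite direction. It was found in 30.4% of Ly49-negative and 16.5% of Ly49-positive WT cells, and in 17.1% and 8.87% of Jα18-deficient cells. The CD1d-deficient pool held 4 cells with a Cd4 UMI. No WT cell and 1 Jα18-deficient cell with 3 or more members held Cd4. Split by coreceptor, any member was found in 82.4% (WT), 87.0% (Jα18-deficient) and 83.5% (CD1d-deficient) of cells with Cd8a and no Cd4. In cells with Cd4 and no Cd8a it was found in 17.6% of WT and 56.5% of Jα18-deficient cells. Cells with neither had 29.5%, 69.4% and 72.8%. The share of any member among cells with Cd8a and no Cd4 was thus near the same in the 3 pools. The WT share came from 34 cells (65.5 to 93.2%). Single members varied more in these cells, with intervals that overlapped. Klra9 was found in 61.8%, 56.1% and 38.5% of them and Klra5 in 23.5%, 35.0% and 48.6%. At 4 UMIs the share of any member was 67.6%, 69.9% and 69.7%. Among cells with neither coreceptor it was then 15.9% and 37.2% in the WT and Jα18-deficient pools, with 57 of 114 cells in the CD1d-deficient pool. For cells with Cd4 and no Cd8a it fell at this limit to 8.40% in WT and 26.1% in the Jα18-deficient pool.

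**Figure D4:**
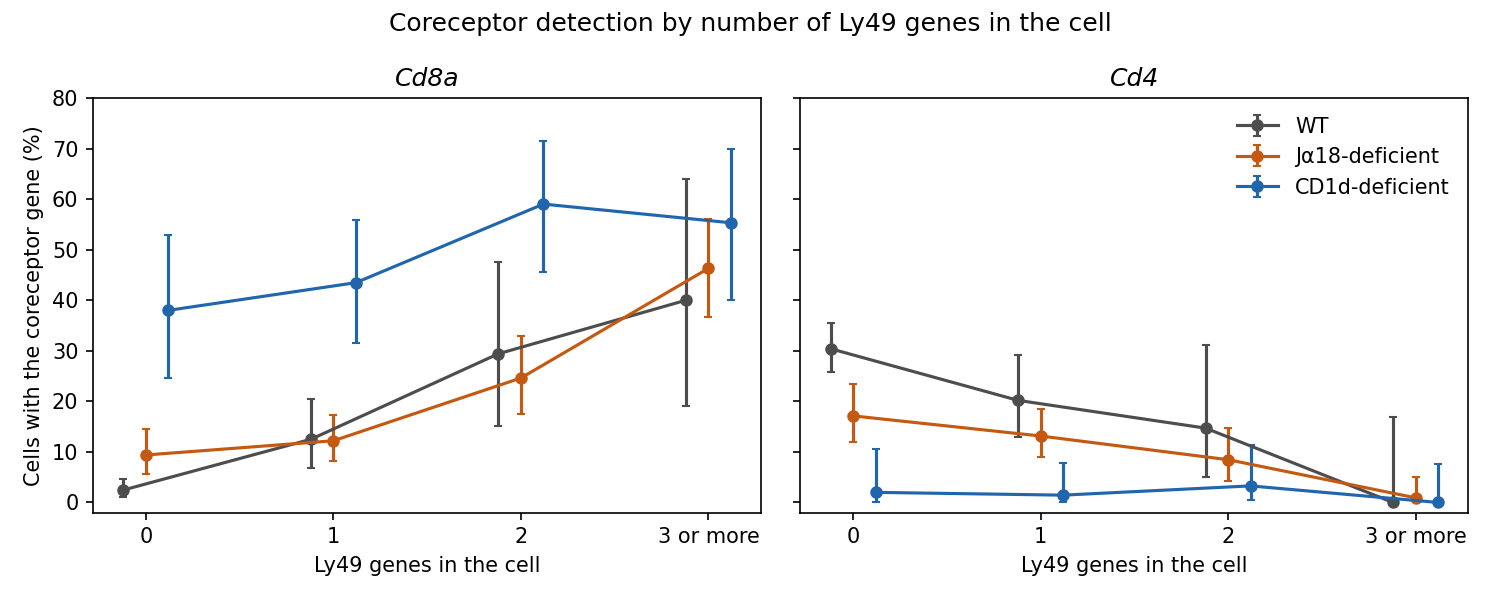
Share of cells (%, vertical axis) with a UMI of Cd8a (left) or Cd4 (right) by the number of Ly49 genes found in the cell (horizontal axis), in cells thinned to 10,000 UMIs. Points are pools and bars exact 95% intervals. Cd8a rises from 2.47% to 40.0% in WT and from 9.39% to 46.3% in Jα18-deficient cells, and Cd4 falls from 30.4% to 0 in WT.

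Which members went with Cd8a was tested on the UMIs of thinned cells summed per pool and class, in cells with a Cd8a UMI (40 WT, 125 Jα18-deficient and 111 CD1d-deficient cells) against those without. Klra5 had 155 CPM in Cd8a-positive and 36.9 in Cd8a-negative WT cells, 257 and 59.9 in Jα18-deficient cells and 454 and 299.9 in CD1d-deficient cells. It rose with a log2 fold change of 1.60 (SE 0.28, edgeR adjusted p = 0.0169). Klra7 had 553 and 85.9 CPM in WT, 817 and 347 in Jα18-deficient and 596 and 414 in CD1d-deficient cells, and rose with a log2 fold change of 1.48 (SE 0.30, adjusted p = 0.0309). Klra9 had 496 and 59.2, 487 and 132, and 328 and 296 CPM in the same order, and its log2 difference of 1.73 (SE 0.39) did not pass the threshold (adjusted p = 0.0631). These 3 members were higher in the Cd8a-positive cells of all 3 pools, and for each of them the ratio of Cd8a-positive to Cd8a-negative cells was lowest in the CD1d-deficient pool.

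Klra1 and Klra3 had no common direction. Klra1 had 157 against 74.9 CPM in WT, 222 against 222 in Jα18-deficient and 135 against 235 in CD1d-deficient cells (log2 difference 0.09, SE 0.30, adjusted p = 0.981). Klra3 was lower in the Cd8a-positive cells of the WT and Jα18-deficient pools, with 19.7 against 41.7 and 52.6 against 95.7 CPM, and higher in those of the CD1d-deficient pool, with 56.5 against 26.8 (log2 difference -0.24, SE 0.45, adjusted p = 0.956). By share of cells, Klra3 went the other way in WT and Jα18-deficient cells: the shares in Cd8a-positive and Cd8a-negative cells were 15.0% and 7.66% in WT, 26.4% and 18.9% in the Jα18-deficient and 23.4% and 7.76% in the CD1d-deficient pool. Klra7 had a UMI in 47.5% of Cd8a-positive and 8.90% of Cd8a-negative WT cells but in 37.8% and 40.5% of CD1d-deficient cells.

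Thus 2 of the 5 members that passed the filter on low counts rose and 0 fell, where 0.472% of the 7409 genes tested rose and 0.310% fell. The median log2 difference of the 5 was 1.48, against -0.03 over all genes tested, and Klra4, Klra6 and Klra8 did not pass the filter. Klra5 missed the threshold when the Jα18-deficient pool was left out (adjusted p = 0.0594). Klra7 was not called with DESeq2 (adjusted p = 0.361) or with cells thinned to 20000 UMIs (0.130), and Klra9 was called when the WT pool (0.0372) or the CD1d-deficient pool (6.21e-10) was left out.

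**Figure D5:**
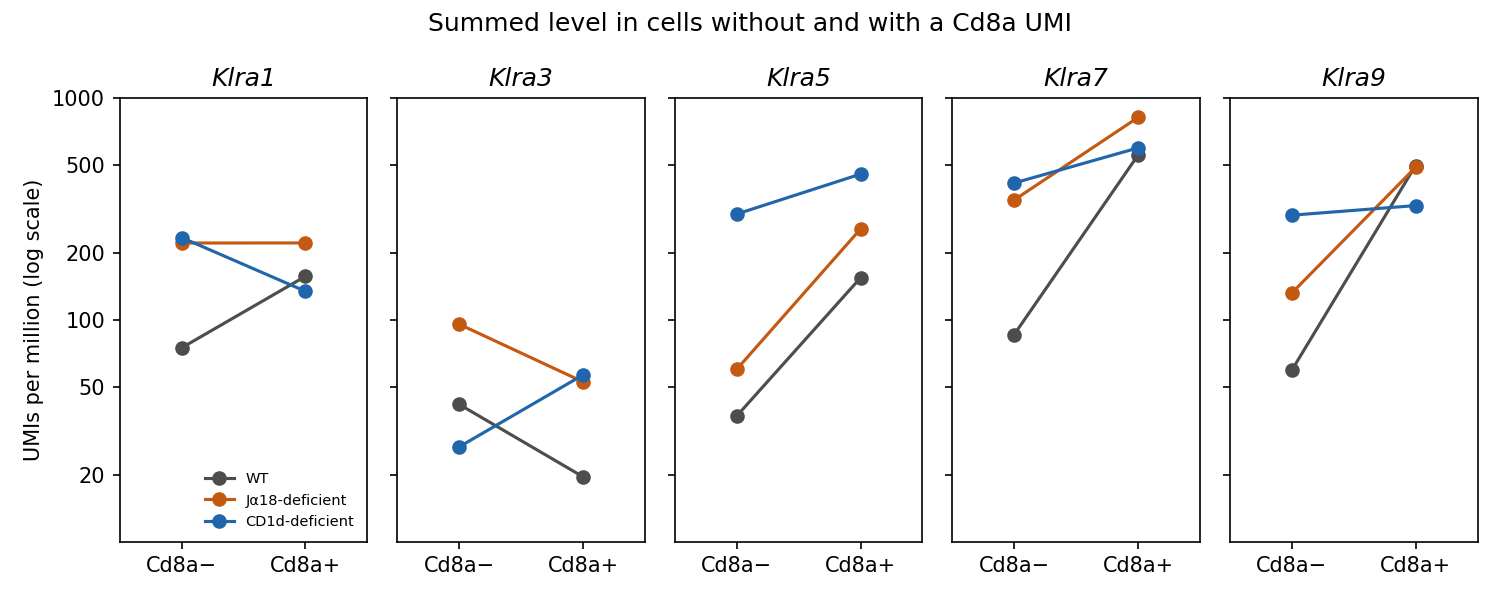
Level of 5 Ly49 genes (CPM, log scale) summed over cells without (Cd8a−) and with (Cd8a+) a Cd8a UMI, with a line for each pool. Klra5, Klra7 and Klra9 are higher with Cd8a in all 3 pools, and Klra1 and Klra3 differ in direction between pools.

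Some genes of other NK cell receptors and their adaptor were also higher in Cd8a-positive cells. Tyrobp, the adaptor of the activating Ly49 receptors, rose with a log2 fold change of 2.004 (SE 0.26, adjusted p = 0.00609). Klre1, a lectin-like receptor encoded beside the family, rose by a log2 fold change of 1.05 (SE 0.18, adjusted p = 0.0166), and Klrd1, which encodes CD94, by 0.82 (SE 0.17, adjusted p = 0.0326). The CD8 β chain gene Cd8b1 rose with a log2 fold change of 3.53 (adjusted p = 0.0193). Cd5 and Cd6, receptors that dampen T cell receptor signals, fell by 1.65 and 1.54 on the log2 scale (adjusted p = 0.0236 and 0.0284). They were 2 of the 5 T cell genes tested, where 0.310% of all genes fell. Cd3d, Cd3e and Cd3g had log2 differences of 0.11, 0.28 and 0.26 and were not called. The median log2 difference of the 5 was 0.11. Of the 8 other lectin-like receptor genes of the NK gene complex that were tested, these 2, Klre1 and Klrd1, rose and 0 fell, against 0.472% and 0.310% of all genes tested. The median log2 difference of the 8 was 0.22, against -0.03 over all genes, with 0.02 for Klrk1 and 0.17 each for Klrc1 and Klrb1c. Ncr1, which encodes the NK cell receptor NKp46, had a log2 difference of 1.34 that did not pass (adjusted p = 0.0942).

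The genes that marked Ly49-positive against Ly49-negative cells were tested in the same way, with the 8 members left out because they chose the classes. Ncr1 had 98.0 CPM in Ly49-positive and 6.87 in Ly49-negative WT cells, 165 and 19.6 in Jα18-deficient cells and 368 and 81.7 in CD1d-deficient cells. It rose with a log2 fold change of 2.98 (SE 0.31, adjusted p = 0.00366). Tyrobp had 1089 and 80.5, 1653 and 346, and 2799 and 848 CPM in the same order and rose with a log2 fold change of 2.55 (SE 0.30, adjusted p = 0.00422). Klre1 and Klrd1 rose by log2 fold changes of 1.43 (SE 0.21, adjusted p = 0.0174) and 1.01 (SE 0.12, adjusted p = 0.00561). Positive cells were above negative cells in every pool for each of these genes. In all, 25 of 8129 genes rose (0.308%) and 5 fell (0.0615%), and 3 of the 3 NK cell genes tested (Ncr1, Klre1 and Tyrobp) were among those that rose. The authors' paper had shown these genes across subsets of the same cells, so their list is no separate support. Klre1 is also counted among the genes of the NK gene complex, and Tyrobp among those of Ly49 signalling.

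Other receptors of the NK gene complex were not called. Klrk1, which encodes NKG2D, had 658 and 357 CPM in Ly49-positive and Ly49-negative WT cells, 664 and 509 in Jα18-deficient cells and 908 and 569.7 in CD1d-deficient cells (log2 difference 0.64, adjusted p = 0.0648). Klrb1c had a log2 difference of 0.21 (adjusted p = 0.772) and Klrc1, which encodes NKG2A, of 0.52 (adjusted p = 0.627). Of the 8 genes of this list that were tested, 2 rose and 0 fell, and the median log2 difference was 0.89 against 0.03 over all genes. Cd8a itself had a log2 difference of 2.07 (SE 0.62) that did not pass (adjusted p = 0.439), although it was higher in Ly49-positive cells of all 3 pools. Without the CD1d-deficient pool, Klrd1 (adjusted p = 0.0985) and Klre1 (0.184) were not called and 6 genes were called in all. Cd8a was called (edgeR adjusted p = 0.0440) when cells with at least 4 UMIs of a member were compared with cells that held no member. That setting left out the Ly49-positive cells with fewer than 4 UMIs of every member.

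The genes whose detection was most like that of the family were ranked by the difference in the share of cells with a UMI between Ly49-positive and Ly49-negative cells, as a mean over the 3 pools. Of 5479 genes found in at least 5% of the cells of every pool, 1697 were ranked. These lay outside the Klra genes and had a difference of the same sign in every pool. Agreement in direction between pools was thus a condition of the ranking and not a result of it. Klre1 led with 34.5 percentage points, followed by Ncr1 with 24.7, Anxa2 with 24.4 and Gzma, a granzyme of cytotoxic cells, with 22.4. Klrd1 had 20.8, Cd7 and the protease inhibitor gene Cst7 20.6 each, Efhd2 18.4, Cd160 17.3 and Lat2 16.8. The ranking used the same cells and classes as the edgeR fit, so the fit is no separate support for it. There the log2 difference was 3.38 for Gzma, 2.15 for Cd7 and 2.17 for Lat2. At the other end, Ly6a, which encodes Sca-1, had a difference of -19.0 points, the chemokine receptor gene Ccr2 -17.5, Socs2 -15.7, Satb1 -13.9 and Bcl2a1d -12.9. In the edgeR fit Socs2 had a log2 difference of -1.09.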

How the data were processed

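The authors' methods state that reads were trimmed with Cutadapt 1.15, aligned to the mm9 transcriptome with Tophat 2.0.12, reduced to unique UMIs and counted per gene with HTSeq 0.10.0. The deposited matrix holds these counts, whole and not normalized. How reads shared between genes were counted is not given in the sources used here. The stated filter of over 500 genes and 10000 to 600000 transcripts leaves 1382 of the 1735 cells deposited, the same cells as were thinned.

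Cells were thinned to 10000 UMIs (seed 1), and shares were given exact Clopper-Pearson and sums exact Poisson 95% intervals, with 3 counts as the limit of a count of 0. Classes were compared on thinned counts summed per pool (at least 3 cells a sum) by edgeR 4.0.16 (quasi-likelihood), TMM, filterByExpr, terms for class and pool and Benjamini-Hochberg adjustment, called under 0.05. The n of 3 are pools of different genotypes, and nothing in the cell names says which mice they came from. Genes that chose a class were removed before its fit. Counts with 200 changed genes were simulated, and recovery was taken over the changed genes that passed the filter. For the Cd8a classes 78.8% of 4-fold and 12.5% of 2-fold changes were recovered (7146 genes), and for the Ly49 classes 81.6% and 13.3% (7954 genes). The simulation gave all genes the same dispersion and held no difference between pools. Its shares are therefore not the power of the fits on the data.

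Named genes were the members, their marker and pathway lists, and the 10 genes most and 5 least like them in detection. Members and lists were chosen with earlier results of these data known. Positions and sequences are those of NCBIM37 (mm9). Alternatives were DESeq2 1.42.0, limma 3.58.1, other depths, seeds, filters and limits, no pool term, and each pool left out. R 4.3.3, Python 3.11.15, scipy 1.17.1, Biopython 1.88 and matplotlib 3.10.9 were used.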

Additional observations from a re-analysis of the deposited data

Results flagged for a closer look

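Of the Klra genes outside the 8 members, 5 had more UMIs than the 3 that a count of 0 allows. Klra10, whose locus lies within the annotated span of Klra9, had 758 UMIs in 41 cells, of which 703 were in the Jα18-deficient pool and 88.0% in 5 cells. Klra23, also within that span, had 472 UMIs in 75 cells, of which 373 were in the Jα18-deficient pool. Klra18 had 71 UMIs, all in 5 Jα18-deficient cells. Klra2 had 59 UMIs in 51 cells, with no more than 3 in a cell, and Klra17 had 9 UMIs in 9 cells. Sequence sharing between these genes and the members was not tested.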

How the results depend on the processing

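Replicates are pools of different genotypes, and mice, libraries and depth within a genotype cannot be told apart. No paired analysis was possible because the cell names carry no replicate number, so genotypes were not paired by replicate. That limit holds for pairing by replicate number alone. The Cd8a and Ly49 classes were compared within each pool, by the pool term of the fits and by the Cd8a difference per pool. The share of Ly49-positive cells was 22.5% in WT and 59.2% in Jα18-deficient cells at 5000 UMIs, 80.4% in Jα18-deficient cells at 20000 UMIs, and 45.3%, 91.6% and 85.5% (WT, Jα18-deficient, CD1d-deficient) without thinning. Without thinning but within the stated filter it was 49.5%, 93.7% and 89.9%, with at least 2 UMIs 19.9%, 48.4% and 69.2%, and with at least 4 UMIs 17.6%, 42.2% and 59.5%. Without Klra7 it was 24.3%, 59.3% and 68.3%, without Klra9 25.8% in WT and 65.0% in Jα18-deficient cells, without Klra3 26.2% and 65.5%, without Klra1 64.7% in Jα18-deficient cells, and without Klra5 67.8% in CD1d-deficient cells. WT was lowest under each of these settings. The share of positive cells with at least 2 members was 57.6% in Jα18-deficient and 71.1% in CD1d-deficient cells at 20000 UMIs, 78.0% and 73.1% without thinning, and 42.5%, 80.6% and 77.0% without thinning within the filter. With at least 2 UMIs it was 42.3% in WT and 49.0% in CD1d-deficient cells, and with at least 4 UMIs 41.5% in CD1d-deficient cells. The mean Cd8a difference was positive under every setting. Genes called between Cd8a classes numbered 58, against 89 with DESeq2, 133 without the filter on low counts, 0 without the pool term (399 at an unadjusted p under 0.05), 14 with unthinned sums, 18 at 20000 UMIs and 38 (without the Jα18-deficient pool) to 86 (without the CD1d-deficient pool) with a pool left out. Between Ly49 classes they numbered 30, against 54 with DESeq2, 110 without the filter, 0 without the pool term (343 at an unadjusted p under 0.05), 3 with unthinned sums, 74 at 5000 UMIs, 16 at 20000 UMIs and 6 (without the CD1d-deficient pool) to 50 (without the Jα18-deficient pool) with a pool left out. They numbered 97 when cells with at least 4 UMIs of a member were compared with cells that held no member, with the cells between left out. The summed CPM ratio of Jα18-deficient over WT was 2.84 in thinned cells and 2.72 with TMM scaling. For CD1d-deficient over WT it was 4.48 as a mean over cells, 3.803 within the filter, 3.803 in thinned cells and 3.74 with TMM scaling, and for CD1d-deficient over Jα18-deficient 1.55 as a mean over cells, 1.29 within the filter and 1.37 with TMM scaling. The ratio of Klra8 between the Jα18-deficient and WT pools turned from 0.428 to 1.42 as a mean over cells and 1.26 in thinned cells. The causes of these shifts were not tested. The limits of 4 UMIs and the pools left out of the Cd8a difference were added after the data were seen.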

Other observations

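Sets of members in single cells were varied. At 4 UMIs, the most common state beyond no member was Klra7 alone, in 78 of 1382 cells, followed by Klra9 alone in 60, Klra1 alone in 47 and Klra1 with Klra7 in 43. In the CD1d-deficient pool Klra5 alone was the most common, in 28 of 227 cells, and Klra5 with Klra9 was found in 12.

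H2-K1, which encodes an MHC class I molecule bound by some Ly49 receptors, had a log2 difference between Ly49-positive and Ly49-negative cells of -0.0037 and H2-D1 of 0.02, and 0 of the 6 genes of class I presentation passed edgeR's adjusted test in either class comparison, with 1 at an unadjusted p under 0.05 in each and 0 called by DESeq2. Of the 9 tested genes of Ly49 signalling 1, Tyrobp, rose in each comparison, with 0 falling, where 0.472% of all genes rose and 0.310% fell between Cd8a classes and 0.308% and 0.0615% between Ly49 classes. The median log2 difference of these 9 genes was 0.10 between Cd8a classes and -0.05 between Ly49 classes. Of the 5 tested transcription factors 0 passed in either comparison, with 3 between Cd8a classes and 2 between Ly49 classes at an unadjusted p under 0.05 and 1 and 0 called by DESeq2. Zbtb16, the factor of NKT cell development, had a log2 difference of -2.52 between Cd8a-positive and Cd8a-negative cells (adjusted p = 0.0843).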
